A study of Mus musculus with 123 samples.

Results

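The genes described here make ornithine and the polyamines, control that synthesis or act in polyamine breakdown. They were taken by symbol: Arg1, Odc1, Amd1, Srm, Sms, Sat1 and Azin1, 7 of the 24134 genes in the deposited tables, where all 7 have a row. They were followed in mouse sensory neurons of the dorsal root ganglion (DRG) after sciatic nerve transection (SNT). The nerve was cut at mid thigh on the right side of mice 2 months of age, and somata of dissociated neurons were picked by hand on both sides. Neurons of the contralateral side of the same mice, which had no cut nerve, served as the control, so that both sides shared anaesthesia, surgery and the systemic response to it. Day 3 neurons came from the L5 ganglion of F1 female mice of a CAST/Eij father and a C57BL/6 mother, and were read with 50 bp single ends. Of these, 48 SNT-side and 22 control-side cells were sequenced, and 41 and 18 were kept after the outliers named by the study were left out. Pooled neurons of the same strain, ganglion and day gave 3 libraries a side. For these the neurons of a side were lysed in 1 tube and the lysate was split, so the 3 libraries of a side share their neurons and measure technical spread. Day 7 neurons came from L3 to L5 ganglia of C57BL/6 mice of both sexes, with paired reads of 75 bp, and all 33 SNT-side and 14 control-side cells were kept. Strain, ganglia, sexes and reads all changed between the days, so that the effect of time and of these cannot be told apart.

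Polyamines (putrescine, spermidine and spermine) are small positively charged molecules that bind RNA, DNA and ion channels, and cells that grow make more of them. Arginase cuts arginine into ornithine and urea, ornithine decarboxylase (Odc1) turns ornithine into putrescine, and spermidine synthase (Srm) and spermine synthase (Sms) then add aminopropyl groups. These groups come from S-adenosylmethionine after its decarboxylation by Amd1. Azin1 resembles Odc1 without its activity and binds the antizymes that would send Odc1 to the proteasome, and Sat1 acetylates spermidine and spermine on the way to export or breakdown. In sensory neurons, arginase I and polyamines are known for helping axons to grow on myelin, and they belong to the account of how a cut peripheral branch prepares the neuron for regrowth.

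Library totals ran from 563462 to 2003817 expected counts in the pooled libraries and from 261351 to 1849130 in the kept cells. Levels are given as counts per 1000000 counts of a library (CPM). They are not divided by gene length, so that a gene is compared only with itself. The pooled libraries need a caution before any result. Their source labels read intact on both sides, and the table carries a line of sample identifiers that gives their columns the opposite side. The column names were followed. In the columns named for SNT, Atf3, a transcription factor of axotomized neurons, stood at 1619, 1372 and 1409 CPM, and in those named for the control at 8.25, 21.5 and 10.6 CPM. Under the other pairing, every pooled difference below would change its sign. All 7 neuronal markers were present in each group. In the cells, the summed level of 12 macrophage markers had a median of 14.7 CPM (range 0.9 to 353.6) after SNT and of 2.8 CPM (0.0 to 92.0) in the controls at day 3. At day 7 these medians were 4.4 and 1.3 CPM.

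In the GRCm38 build, Arg1 lies on chromosome 10 (24915221 to 24927484, minus strand), Odc1 on 12 (17544794 to 17551505, plus), Srm on 4 (148591503 to 148594993, plus) and Azin1 on 15 (38487427 to 38519266, minus). Sms (157443855 to 157492287) and Sat1 (155213132 to 155216449) both lie on the minus strand of the X chromosome. The values of a gene are summed over its exons.

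One of the members cannot be read from its own row. Amd1 has a near copy without introns, Amd2, and in the GENCODE M21 annotation (build GRCm38, while the submitters' notes name mm9) both lie on the minus strand of chromosome 10. Their coding sequences, 1005 bases each, differ at 1 base. The stretch around it is shown because it holds the only coding base that can assign a read. It covers coding positions 766 to 825, counted from the A of the start codon, at chr10:40290157-40290216 in exon 7 of the 8 exons of Amd1 and at chr10:35710735-35710794 in the only exon of Amd2. The capital marks the base that differs.
Amd1: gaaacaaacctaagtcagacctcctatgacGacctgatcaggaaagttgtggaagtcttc
Amd2: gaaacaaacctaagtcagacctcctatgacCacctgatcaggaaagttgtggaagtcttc
Of the 50-base windows of the Amd1 transcript, 86.1% stood also in Amd2, and of the 75-base windows 79.6%. In the deposited tables, the counts of a library stood nearly always on 1 of the copies. Of the 6 pooled libraries, 2 had all of them on Amd1 and 4 all on Amd2. Of the 106 kept cells, 23 had all on Amd1, 81 all on Amd2 and 2 had some on each. The row of Amd1 alone therefore switches between full and empty within each group, and the sum of both rows, a choice made after the values were seen, is reported in its place.

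In pooled neurons at day 3, the genes of the first committed step and its protection were higher on the SNT side. Odc1, its antizyme inhibitor Azin1 and the spermidine synthase Srm rose, and for each the 3 SNT libraries lay above the 3 control libraries, which held for 16.8% of all genes tested. Sms and Sat1 did not pass the test, and the Amd1 and Amd2 sum was lower by less than the size limit. A gene was called when edgeR's quasi-likelihood test gave an adjusted p below 0.05 and the log2 change was beyond 1. Of the 6 members tested, 3 were called, all higher, against 8.83% of the 13509 genes tested called higher and 961 genes called lower (15.9% in either direction). In pooled RNA, fewer cells of a type and less RNA per cell cannot be told apart.

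Odc1 stood at 56.5, 74.9 and 60.2 CPM in SNT libraries 1, 2 and 3 and at 19.3, 21.9 and 23.1 CPM in control libraries 1, 2 and 3. The groups did not overlap, and the lowest SNT library lay far above the highest control library. The means were 63.9 ± 9.74 CPM (SD, n = 3) and 21.4 ± 1.96 CPM (SD, n = 3), and the log2 change in edgeR was 1.74 with an SE of 0.28 and an adjusted p of 7.2e-06. Odc1 has many processed copies in the mouse genome. Of its 50-base windows, 42.2% occur in transcripts of 16 other annotated genes, of which 2 have a row in the tables. These are AW146154, at means of 3.03 CPM after SNT and 4.3 CPM in the controls, and Gm15645, at 42.7 and 11.5 CPM. They hold 242 and 88 of the 2159 windows of Odc1. Shared windows alone do not make a gene a copy of Odc1, and the origin of the reads on these 2 rows was not tested. Gm15645 was itself called higher (log2 change 2.02, edgeR, adjusted p = 0.00013), and with its counts added to those of Odc1 the log2 change was 1.85 with an SE of 0.24 (edgeR, adjusted p = 1.1e-07).

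Azin1 was read at 482, 402 and 384 CPM in the SNT libraries and at 210, 210 and 200 CPM in the control libraries. Here the groups were farther apart than their spread, with means of 423 ± 52.3 CPM and 207 ± 5.52 CPM (SD, n = 3 each). The log2 change was 1.19 with an SE of 0.15 (edgeR, adjusted p = 2.2e-08). Azin1 shares 6.43% of its 50-base windows with 1 other gene, which has no row in the tables.

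Srm, which makes spermidine from putrescine, had 102, 90.5 and 106 CPM in the SNT libraries and 39.9, 36.9 and 51.5 CPM in the control libraries. The log2 change was 1.40 with an SE of 0.23 (edgeR, adjusted p = 6e-06). Sms, the next enzyme of the chain, had 161, 128 and 165 CPM against 132, 144 and 122 CPM. These groups overlapped, and the log2 change of 0.35 with an SE of 0.17 did not pass (edgeR, adjusted p = 0.15). Srm and Sms thus differed in their calls, but the difference between their changes was not tested. Of the 50-base windows of Sms, 28.7% occur in transcripts of 6 other genes. Only 1 of these has a row in the tables, at means of 8.24 CPM after SNT and 7.76 CPM in the controls. For Srm the share of such windows is 2.4%.

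The sum of Amd1 and Amd2 stood at 90.3, 83.6 and 95.8 CPM in the SNT libraries and at 155, 126 and 169 CPM in the control libraries. It was the only entry of the set that was lower in every SNT library, which 21.3% of all genes tested also were. An adjusted p below 0.05, whatever the size, was found for 24.8% of all genes. The log2 change of the sum, -0.57 with an SE of 0.18, passed the limit on adjusted p (edgeR, 0.019) but not the limit on size. Without SNT library 2 the adjusted p was 0.097, without SNT library 1 it was 0.068, and without control libraries 1 or 3 it was 0.052 and 0.094.

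Sat1, the acetyltransferase of breakdown, had 93.9, 90.5 and 90.8 CPM in the SNT libraries and 103, 89.4 and 97.6 CPM in the control libraries. The libraries overlapped, and the log2 change was 0.09 with an SE of 0.19 (edgeR, adjusted p = 0.8). With the library total as the only scaling it was -0.07. Under that scaling the median log2 change of all genes moved from 0.02 to -0.14, and the calls went from 1193 higher and 961 lower to 978 higher and 1265 lower.

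Arg1 was at the edge of detection in pooled neurons. The 3 SNT libraries held 5 counts in all, at 0.598, 0.87 and 1.5 CPM, and the control libraries held 0 counts. A count of 0 in the 3 control libraries allows a level of up to 1.41 CPM, which is above the 1.04 CPM of the SNT libraries together, so that no fold is given. Arg1 lay under the mean of 1 CPM that a gene needed to be tested, and without that filter it did not pass (edgeR, adjusted p = 0.36).

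**Figure D1:**
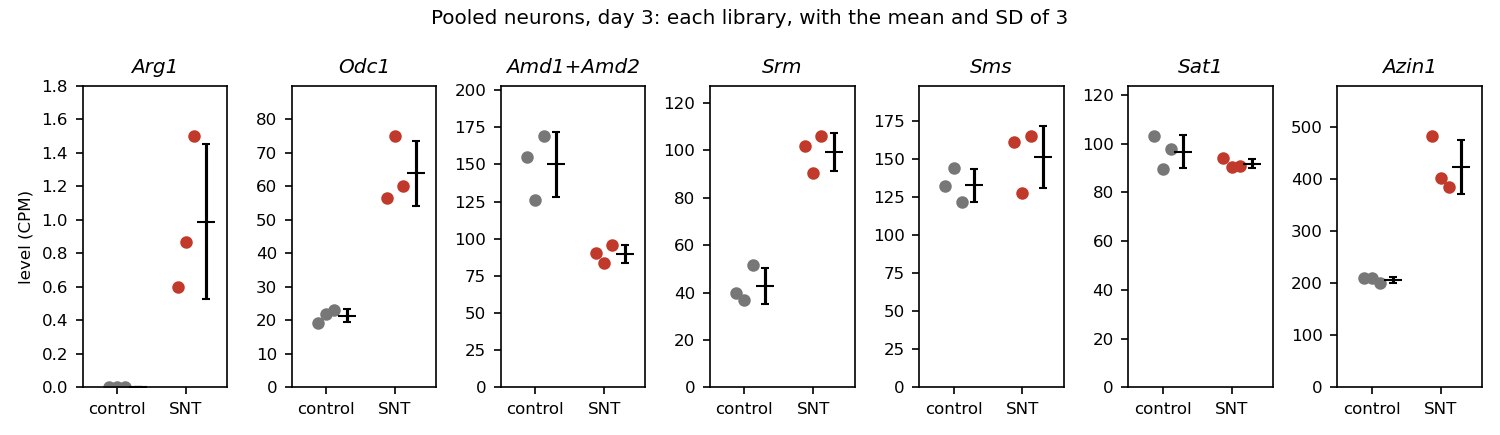
Level of each member in pooled neurons at day 3, in CPM on axes that start at 0, with 1 dot for each of the 3 control and 3 SNT libraries and the mean and SD beside them. The dots of Odc1, Srm and Azin1 lie higher on the SNT side without overlap, those of Sms and Sat1 overlap, and the sum of Amd1 and Amd2 lies lower.

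Satellite glia surround DRG somata, and their markers moved with the side in these pools. The summed level of 10 glial markers ran from 6156.0 to 6950.6 CPM in the SNT libraries and from 12636.0 to 15313.3 CPM in the control libraries, and that of 7 neuronal markers from 20704.5 to 23015.3 CPM and from 12318.5 to 14554.6 CPM. The 12 macrophage markers summed to 9.8 to 14.4 CPM in the SNT libraries, with 5 of the 12 at 0, and to 0.0 to 6.0 CPM in the control libraries, with 7 at 0. The part of these in the differences of the members, and of the pathway genes that follow, was not tested.

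The genes around the pathway were read from lists of arginine supply and use, polyamine control and breakdown, methionine supply and salvage, hypusine formation and transcriptional regulators, 53 genes with a row in all. Of the 45 tested in pooled neurons, 6 were called higher and 7 lower, 5 passed the limit on adjusted p alone and 27 did not pass. Over all genes 8.83% were called higher and 15.9% in either direction. The median log2 change over the 45 was 0.06, beside 0.02 over all genes. Arginine supply and use gave 3 genes higher and 3 lower of 16 tested, polyamine control and breakdown 1 higher and 2 lower of 10, methionine supply and salvage 1 higher and 2 lower of 10, and hypusine formation 1 higher of 4. Of the 5 regulators tested, which include Myc, a known activator of Odc1 transcription, none was called in edgeR, and none passed the limit on adjusted p. Myc came nearest, with a log2 change of 0.67 and an unadjusted p of 0.047 (adjusted p = 0.14).

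Among the genes that handle arginine, Arg2, the mitochondrial arginase, rose. It had 31.2, 18.9 and 27.3 CPM in the SNT libraries and at most 12.6 CPM in a control library, with means of 25.8 ± 6.30 and 9.41 ± 2.87 CPM (SD, n = 3 each) and a log2 change of 1.63 and an SE of 0.41 (edgeR, adjusted p = 0.0025). Slc7a6, a transporter of cationic amino acids, rose with a log2 change of 1.53 and an SE of 0.26 (adjusted p = 1.4e-05). Another such transporter, Slc7a3, had 19 counts in the SNT libraries and 0 in the control libraries, which makes it at least 2.8-fold higher when 3 counts over the control group are taken as the floor. Its adjusted p of 0.025 in edgeR became 0.071 in DESeq2, and the call was lost without SNT libraries 1 or 2 and without any single control library (0.054 to 0.083). Slc7a2, also a transporter of this family, fell by 1.57 on the log2 scale with an SE of 0.27. Ass1, which joins citrulline and aspartate on the way back to arginine, fell by 1.56 with an SE of 0.23, from 97.6, 120 and 126 CPM in the control libraries to 36.5, 27 and 39.4 CPM. Gatm, which spends arginine in creatine synthesis, fell by 1.55 with an SE of 0.14 (edgeR, adjusted p = 1.4e-11), from 531, 509 and 541 CPM to 172, 149 and 162 CPM.

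Around the polyamines themselves, Azin2, the second antizyme inhibitor, was just past the limit at a log2 change of 1.02 with an SE of 0.30 (edgeR, adjusted p = 0.01). With the library total as the only scaling it was 0.86, and it was not called without SNT library 2 (0.88) or control library 1 (0.80). Oaz1, the major antizyme that Azin1 and Azin2 bind, was lower in every SNT library, at 346, 320 and 289 CPM against 580, 514 and 440 CPM. Its log2 change of -0.53 passed the limit on adjusted p (0.0032) but not that on size. Paox, which oxidises acetylated polyamines back towards putrescine, was called lower at -2.02 from 12 counts against 24 (adjusted p = 0.038). The vesicular polyamine transporter Slc18b1 was called lower with an adjusted p of 0.039 and means of 15.2 and 33.2 CPM, at the limit of size. The call of Paox was lost in edgeR without SNT libraries 1 or 2 or any single control library (adjusted p 0.053 to 0.15). That of Slc18b1 was lost without any single SNT library and without control libraries 2 or 3 (0.065 to 0.34).

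Ahcy, which clears the S-adenosylhomocysteine left by methyl transfer, rose from 6.77, 26.2 and 21.4 CPM in the control libraries to 54.2, 44.4 and 63.9 CPM, a log2 change of 1.74 with an SE of 0.33 (edgeR, adjusted p = 7.9e-05). Mtap, which salvages the methylthioadenosine that Srm and Sms leave behind, was lower, with a log2 change of -1.17 and an SE of 0.34 (adjusted p = 0.0099). Without SNT library 2 the adjusted p was 0.058, and without control library 3 it was 0.074. Mat2b, a regulatory subunit of S-adenosylmethionine synthase, was lower at -1.03, and under the size limit without SNT libraries 2 or 3 or control library 3 (-0.90 to -0.99). Its catalytic partner Mat2a had a log2 change of -0.02. Dhps, which uses spermidine to begin hypusine on Eif5a, rose with a log2 change of 1.11 and an SE of 0.19 (adjusted p = 2.3e-05). Eif5a itself passed the limit on adjusted p alone at 0.50, and its paralog Eif5a2 did so at -0.53. Without SNT library 2 the number of these genes called fell from 13 to 7, and without control library 3 it fell to 8.

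**Figure D2:**
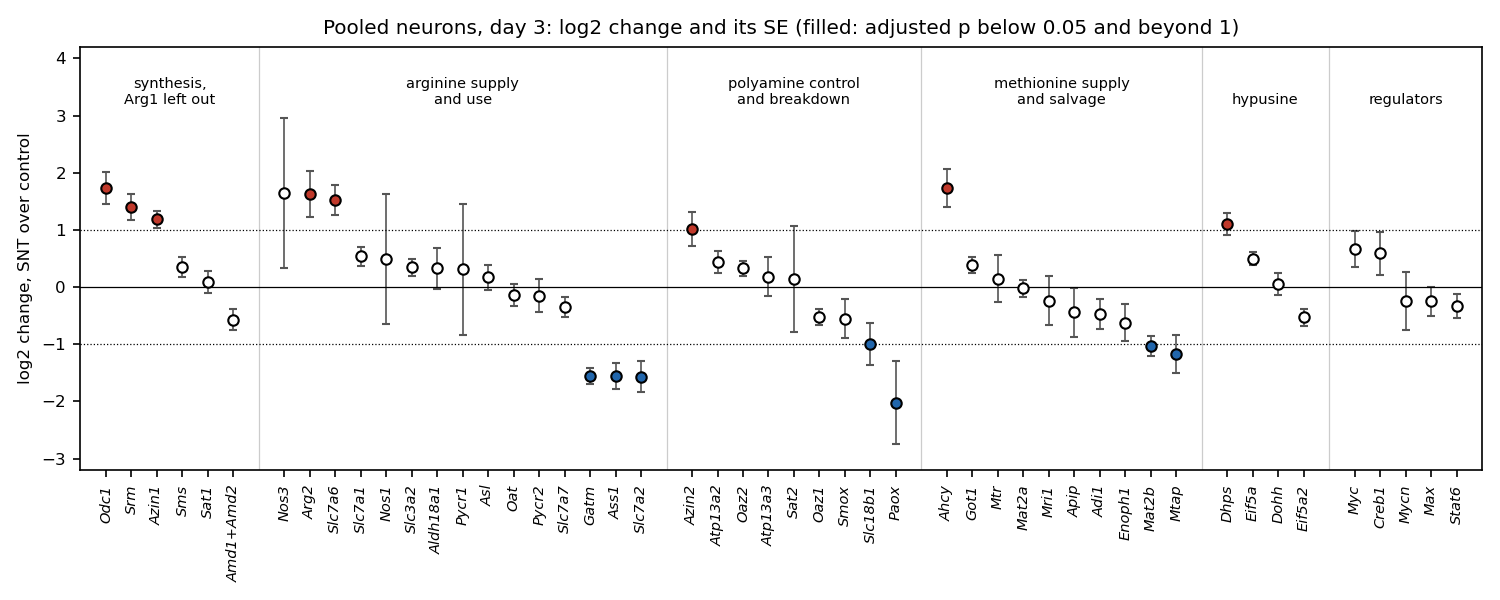
Log2 change from the control to the SNT side in pooled neurons at day 3 for the tested members and pathway genes, by list, with bars of 1 SE; red dots were called higher, blue dots were called lower and open dots were not called. Arg1 is left out because it was not tested, Slc7a3 because its control libraries hold no count, and Amd1 and Amd2 appear as their sum. The called genes point both ways in the lists of arginine, polyamine control and methionine, are all higher among the members and for hypusine, and are absent among the regulators.

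In the day 3 cells, Odc1 and Azin1 were higher on the SNT side beyond the fold limit, as in the pools, while Srm was higher by less than that limit. No label ties a cell to an animal (the sexes at day 7 place at least 2 animals on each side), so cells were not taken as replicates, no test is given, and the difference is the log2 ratio of mean CPM plus 1. Odc1, Azin1 and Arg1 were beyond a log2 ratio of 1, which makes 3 of the 7 members, all higher. Of the 13644 genes that averaged 1 CPM or more over both sides, 6.78% were as far higher and 6.35% as far lower (13.1% in all).

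Odc1 ran from 6.22 CPM over a median of 64.9 to 211 CPM in the 41 SNT-side cells and from 2.92 over 33.5 to 77.7 CPM in the 18 control-side cells. Of the SNT-side cells, 17 were above every control-side cell and none was below. The means were 82.5 ± 56.0 and 34.9 ± 16.6 CPM (SD over cells), a log2 ratio of 1.22, which was 0.91 when the outlier cells were kept in and 0.93 when medians took the place of means. The share of cells above 10 CPM was alike, at 97.6% (95% exact binomial interval 87.1 to 99.9) and 94.4% (72.7 to 99.9). Above 50 CPM it was 68.3% (51.9 to 81.9) and 16.7% (3.58 to 41.4). These intervals cover counting error only.

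Azin1 ran from 73.6 over a median of 331 to 889 CPM on the SNT side and from 81.5 over 148 to 359 CPM on the control side, with 18 SNT-side cells above every control-side cell. The log2 ratio was 1.16 by means and by medians alike. Sms had medians of 134 and 89.9 CPM, and 11 of the 41 cells exceeded the control range, which ran up to 182 CPM. The log2 ratio of its means was 0.62. Sms was thus shifted in part of the cells without reaching the limit.

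Srm differed between pools and cells. Its medians over cells were 84.1 CPM after SNT and 57.9 CPM in the controls, but the highest cell of all, at 178 CPM, was a control-side cell, and the highest SNT-side cell had 170 CPM. None of the 41 SNT-side cells was above every control-side cell, and the log2 ratio was 0.18 by means and 0.53 by medians, beside a log2 change of 1.40 in the pools. The pool value carries edgeR's scaling of libraries, while the cell values are ratios of CPM plus 1. Over the alternatives run, the pool value was 1.24 to 1.54, and by the sum of counts over cells the cell ratio was 0.33. Pools and cells were different neurons of the same design, and this gap was not tested. The sum of Amd1 and Amd2 had medians of 97.5 and 118 CPM, its log2 ratio was -0.27, and 6 SNT-side cells were below every control-side cell. Sat1 had medians of 46.8 and 66.6 CPM and its log2 ratio was -0.42, while 39 of the 41 cells lay within the control range.

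Counts of Arg1 were held by 12 of the 41 cells after SNT (29.3%, exact binomial interval 16.1 to 45.5) and by 2 of 18 control-side cells (11.1%, 1.38 to 34.7). The median total of these cells was 1323932 counts on the SNT side and 862619 on the control side, and the shares were not adjusted for depth. The SNT side held 91 counts (exact Poisson interval 73.3 to 112) and the control side 2 counts, which relative to the summed totals is a ratio of 13.5 (3.64 to 113, counting error only). Both intervals take the counts as independent. They came from cDNA amplified by PCR and lay in 12 cells, so the intervals are likely too narrow. Even the highest cell, with 24 counts and 26.4% of the side's total, reached no more than 16.1 CPM, and without it the ratio was 10.3. The log2 ratio of mean CPM plus 1 was 1.14, with means of 1.79 and 0.266 CPM, and it fell under the limit without the highest cell (0.94), without the cells above 50 CPM of immune markers (0.97) or with 10 CPM added in place of 1 (0.20).

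Macrophages are a known source of Arg1 in injured tissue. Over the 12 SNT-side cells with an Arg1 count, the sum of the macrophage markers had a median of 24.7 CPM and reached 353.6 CPM. Over the 29 cells without a count the median was 11.9 CPM and the highest was 57.0 CPM. The cell with the 24 counts had 14.1 CPM of macrophage markers, and 21 of the SNT-side cells had more. The cell with 353.6 CPM held 1 count of Arg1. The part of immune RNA in the Arg1 counts was not tested beyond these values.

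Beside Arg1, the other arginase was counted in more cells. More than 10 CPM of Arg2 stood in 24 of the 41 cells after SNT (58.5%, 42.1 to 73.7) and in 1 of the 18 control cells (5.56%, 0.141 to 27.3). Its means were 35.7 and 3.52 CPM, a log2 ratio of 3.02, and its medians 16.5 and 2.44 CPM. Of the 48 pathway genes at a mean of 1 CPM or more, Arg2 and Slc7a6 (log2 ratio 1.08) were the 2 beyond the limit upwards, and Ass1 (-1.52) was the 1 beyond it downwards. The median over the 48 was -0.03, and over all genes it was -0.05. Of the genes called higher in the pools, all 6 had a ratio above 0 in these cells, and Slc7a3 (0.71), Ahcy (0.85), Dhps (0.53) and Azin2 (0.13) stayed within the limit. The sign for Slc7a3 rested on 1 SNT-side cell at 402 CPM, and without it the ratio was -0.31. Slc7a3 was counted in 21 SNT-side and 3 control-side cells, and 1 of the latter had 181 CPM. Of the 7 called lower in the pools, Gatm (-0.74), Mat2b (-0.64), Slc18b1 (-0.32), Paox (-0.16) and Slc7a2 (-0.06) stayed within it, and Mtap pointed the other way (0.34). By medians over cells, Slc7a2 also pointed the other way, at 25.4 CPM after SNT and 9.96 CPM in the controls (1.27).

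**Figure D3:**
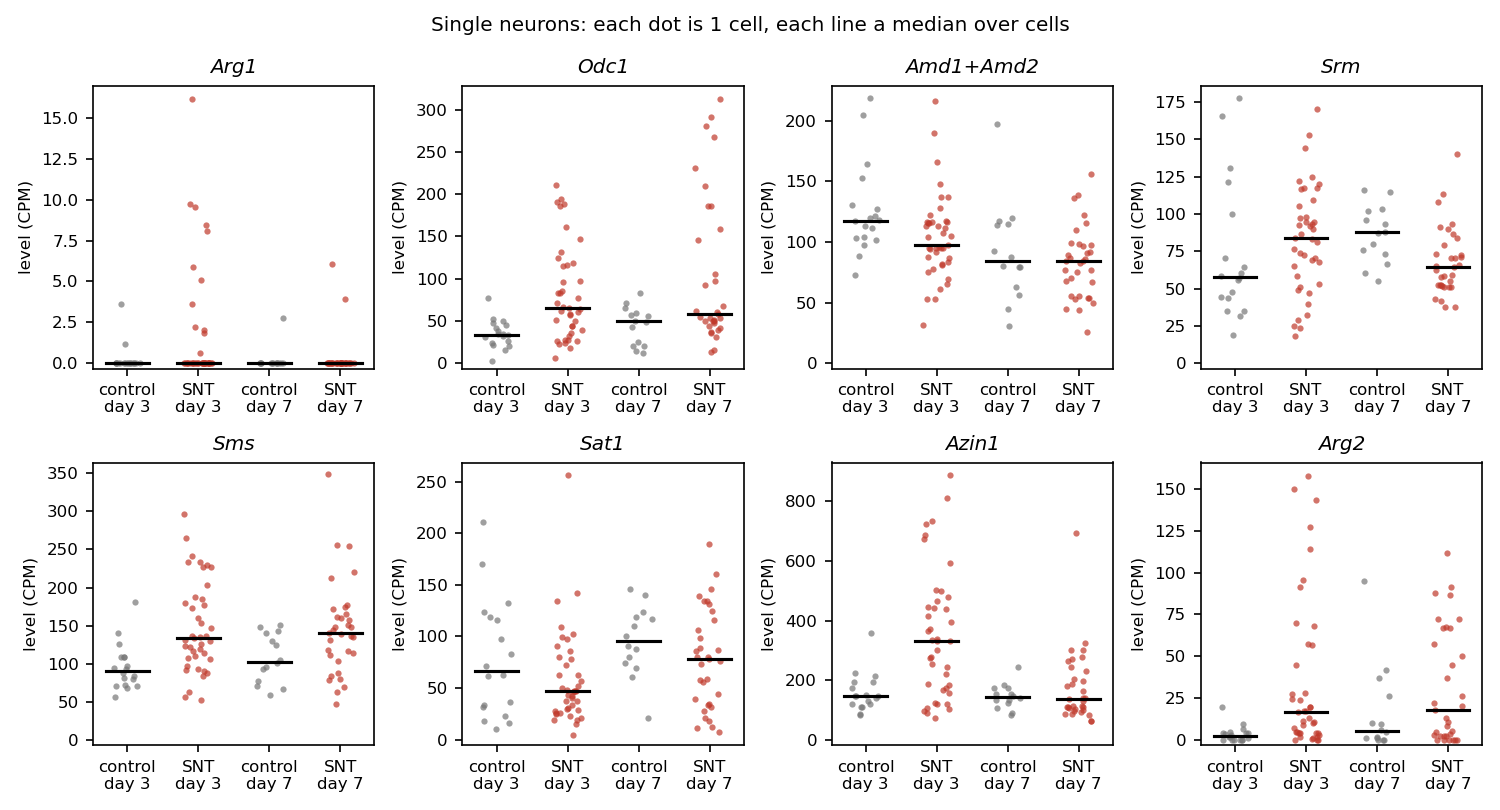
Level of each member and of Arg2 in single neurons, in CPM, with 1 dot for each cell and a line at the median of each side and day (18 and 41 cells at day 3, 14 and 33 at day 7). At day 3 many SNT-side dots of Odc1, Azin1 and Sms lie above all control-side dots, while those of Srm, Sat1 and the sum of Amd1 and Amd2 mostly stay within the control range.

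In the day 7 cells, Odc1 alone of the members was beyond the limit, at a log2 ratio of 1.21, and the difference came from part of the SNT-side cells. Of the 13264 genes at a mean of 1 CPM or more, 5.99% were as far higher and 3.63% as far lower (9.62% in all). Arg1 lay under that mean and the other 5 members were within the limit.

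Odc1 ran from 13 over a median of 58.1 to 312 CPM in the 33 SNT-side cells and from 11.7 over 49.4 to 82.6 CPM in the 14 control-side cells. The medians were close, with a log2 ratio of 0.23, while 13 of the 33 cells were above every control-side cell. The means were 105 ± 89.0 and 44.9 ± 22.6 CPM (SD over cells). With the counts of Gm15645 added, the log2 ratio of means was 0.93. The labels give the sex at this day. The ratio was 1.33 in cells of females (16 and 7 cells) and 1.03 in cells of males (17 and 7 cells).

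Azin1 had medians of 135 and 143 CPM but a log2 ratio of means of 0.28, with 7 SNT-side cells above every control-side cell and a highest value of 693 CPM. In cells of females its means were 226 and 145 CPM, a log2 ratio of 0.64, and in cells of males 130 and 146 CPM, a ratio of -0.17. The sign thus changed between the sexes, which for the other members, with Amd1 and Amd2 summed, happened with Arg1 alone. This difference was not tested. In males, SNT-side cells with Atf3 above every control-side cell had 198.5 to 300.4 CPM of Azin1 and the others 62.37 to 141.1 CPM. In females these were 187.6 to 692.6 CPM and 107.5 to 180.1 CPM. The ratio of each sex mixes both kinds of cell, whose shares differed between the sexes, and it was not split by Atf3. Cells of females and of males also came from different animals. Sex, animal and the share of cells with high Atf3 cannot be told apart here. For Sms, with medians of 140 and 102 CPM, 12 cells were above every control-side cell and the ratio was 0.44. Srm had medians of 64.5 and 87.9 CPM and a ratio of -0.34, with 12 SNT-side cells below every control-side cell. Sat1 (-0.29) and the sum of Amd1 and Amd2 (-0.14) stayed within the control range in 26 and 32 of 33 cells. Arg1 had 7 counts on the SNT side and 2 on the control side, a ratio of 1.87 (0.357 to 18.5), which is not a detectable difference at this depth, and 5 of the 7 counts lay in 1 cell.

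Of the 46 pathway genes at a mean of 1 CPM or more at day 7, none was beyond the limit upwards, and Paox (-1.30) and Nos1 (-1.08), a nitric oxide synthase that spends arginine, were beyond it downwards. Arg2 had means of 31.9 and 16.7 CPM with a log2 ratio of 0.89. No pathway gene was beyond the limit in the cells of both days in the same direction.

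The cells with high Odc1, Azin1 or Sms were for the most part cells with high Atf3. At day 3, Atf3 was above its highest control-side level of 75.7 CPM in 30 of 41 SNT-side cells, where it started at 951 CPM, and at most 23 CPM in the other 11. All 17 cells with Odc1 above every control-side cell, all 18 with Azin1 and 16 of the 17 with Arg2 were among these 30. So were all 11 with Sms. At day 7, 12 of 33 SNT-side cells had Atf3 above every control-side cell, and 11 of the 13 cells high in Odc1 and all 7 high in Azin1 were among them. For Sms it was 9 of 12 cells, and for Arg2 the only 1. In the cells with high Atf3, the medians of Odc1 were 84.5 CPM at day 3 and 198 CPM at day 7, and in the other SNT-side cells 26.7 and 50.0 CPM, beside 33.5 and 49.4 CPM on the control side. For Azin1 these were 406 and 267 CPM, then 121 and 110 CPM, beside 148 and 143 CPM.

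Among cells with high Odc1 and high Azin1 the days looked different. At day 3, 7 of the 17 cells above every control-side cell for Odc1 were so for Azin1 too, 7 of its 18. At day 7, all 7 cells above every control-side cell for Azin1 were so for Odc1, 7 of its 13. Over all SNT-side cells, the rank correlation of Odc1 with Azin1 was 0.25 at day 3 (41 cells) and 0.72 at day 7 (33 cells), and on the control side -0.34 (18 cells) and 0.02 (14 cells). The cells of a group share their animals and differ in depth, and the SNT-side groups mix cells with and without high Atf3. Those with high Atf3 were 30 of 41 at day 3 and 12 of 33 at day 7, and no correlation was computed within them. Odc1 had a rank correlation of 0.39 with the total count of a cell in the day 7 SNT-side cells and Azin1 one of 0.56, and at day 3 these were -0.05 and 0.24. Azin1 with Sms was between 0.41 and 0.59 in all 4 groups.

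**Figure D4:**
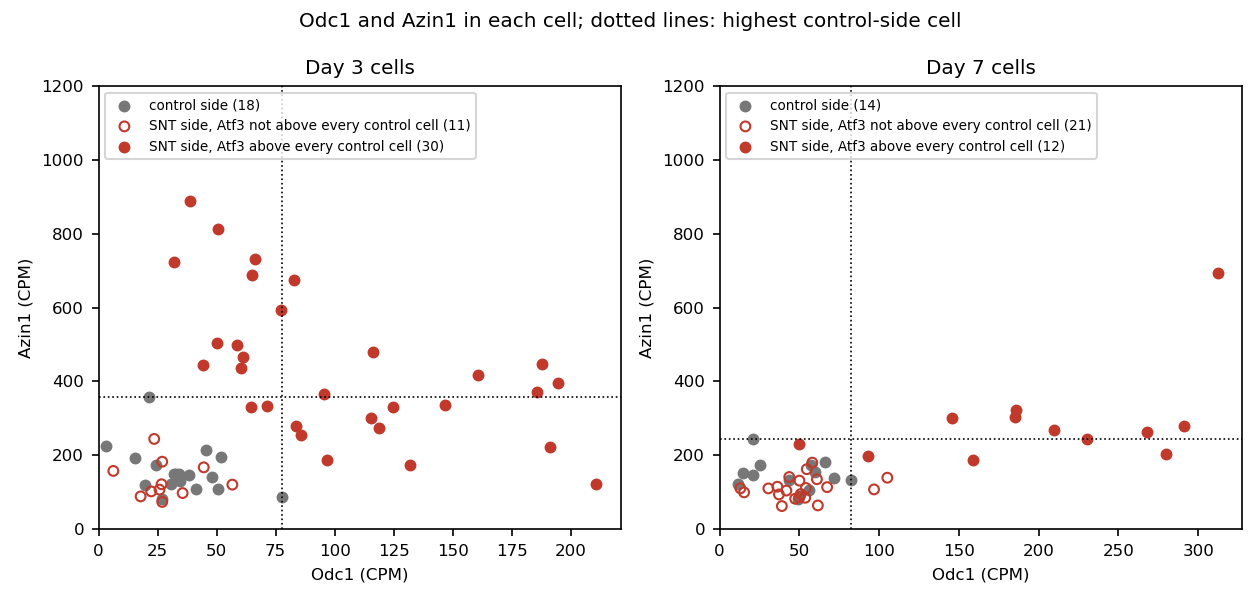
Odc1 against Azin1, in CPM, in each kept cell at day 3 (left) and day 7 (right), with dotted lines at the highest control-side cell; filled red dots are SNT-side cells with Atf3 above every control-side cell. At day 3 the red dots spread along both axes with 7 beyond both lines, and at day 7 all 7 dots beyond the Azin1 line are also beyond the Odc1 line.

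The levels of Sat1 and Odc1 were also set against markers of other cells. The rank correlation of Sat1 with the summed glial markers was 0.49 and 0.74 in SNT-side and control-side cells at day 3 (41 and 18 cells) and 0.61 and 0.75 at day 7 (33 and 14 cells). With the number of genes detected in a cell, that of Sat1 was 0.36 and 0.59, then 0.19 and 0.39. With Odc1, Sat1 had rank correlations of -0.60 on both sides at day 7, and of -0.12 and 0.17 at day 3. Odc1 had rank correlations with the macrophage sum of 0.49 and 0.38 in SNT-side and control-side cells at day 3, and of -0.09 and -0.35 at day 7. With the glial sum, Odc1 stood at 0.02 and 0.18 at day 3 and at -0.44 and -0.65 at day 7. Some markers of neuron types differed between the sides. The summed level of 3 markers of peptidergic nociceptors had a median of 337.7 CPM after SNT and 2339.9 CPM in the controls at day 3, and 5.2 and 321.1 CPM at day 7. For 4 markers of nonpeptidergic nociceptors these were 1532.8 and 1662.8 CPM at day 3 and 432.7 and 449.0 CPM at day 7, and for 4 markers of large myelinated neurons 201.3 and 175.4 CPM, then 3018.3 and 3092.9 CPM. Fewer cells of a type and a lower level in each cell were not told apart here. With the peptidergic sum, Azin1 had rank correlations of -0.47 and -0.76 in SNT-side and control-side cells at day 3, and of -0.28 and -0.05 at day 7. For Sms these were -0.34 and -0.70, then -0.27 and -0.60. For Odc1 they were -0.35 and 0.12, then -0.31 and 0.00, and for Arg2 -0.68 and 0.09, then -0.42 and -0.44. With the large myelinated sum, Sat1 had 0.34 and 0.71, then 0.41 and 0.13. Arg2 had 0.56 and 0.68, then -0.42 and 0.57, and Azin1 had 0.26 and 0.05, then -0.61 and -0.35. With the nonpeptidergic sum, Sat1 had -0.25 and -0.66, then -0.51 and -0.24. Arg2 had -0.60 and -0.44, then 0.48 and 0.43, and Azin1 had -0.28 and 0.33, then 0.55 and 0.19. The glial sums at day 7 had medians of 1498.9 and 5221.1 CPM. The part of these in the members' differences was not tested.

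The genes whose pattern was most like a member's were sought by rank correlation over the 59 day 3 cells, among 11627 genes above 10 CPM in at least 5 of them. For Odc1 these were Srxn1, a sulfiredoxin (0.81), Gadd45a, a gene induced by DNA damage and stress (0.78), and Bmp1, a procollagen protease (0.78). Over the 47 day 7 cells the values were 0.77, 0.74 and 0.15. Within the control-side cells of day 3, Gadd45a stood at -0.03, and Srxn1 at 0.54. For Azin1 they were the monocarboxylate transporter Slc16a1, Tbc1d19 and Star, each at 0.78, with 0.44, 0.61 and 0.42 at day 7. Sms was followed by Elof1, a transcription elongation factor (0.72), the mitochondrial pyruvate carrier subunit Mpc1 (0.67) and Usmg5 (0.64), with 0.42, 0.61 and 0.57 at day 7. For Sat1 they were Spred1 (0.66), Rsph9 (0.65) and Tcirg1 (0.64), with 0.39 to 0.56 at day 7. The genes nearest to Srm at day 3, Casc4 (0.65), Gm15645 (0.63) and H2-DMa (0.62), stood at -0.32, -0.30 and 0.04 at day 7. These values describe the cells and pool both sides, and Arg1, above 10 CPM in 1 cell, had none. The genes found for the row of Amd1 alone are left out, since that row depends on how reads were split.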

How the data were processed

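Per the submitters' notes and the study's methods, Smart-seq2 libraries were demultiplexed with CASAVA 1.8.2, aligned with Bowtie2 and quantified with RSEM on RefSeq exons (mm9), without ribosomal RNA. The deposited tables are named TPM, but the authors' values are expected counts: totals differ between libraries, and whole numbers make up 60.7% to 93.6% of each library's nonzero entries. The levels were therefore rescaled to CPM, and expected counts were rounded for tests. Pooled libraries were tested with edgeR 4.0.16 (quasi-likelihood, TMM, genes averaging 1 CPM or more, Benjamini-Hochberg adjustment over all of them, call at adjusted p below 0.05 and log2 change beyond 1). The SE is the log2 change divided by the root of the F statistic. The code was tested on simulated data. DESeq2 1.42.0 and limma 3.58.1 were alternatives. Single cells were not tested, because no label names their animals, and p-values of pooled libraries measure technical spread. Libraries of the same number did not pair. The pooled libraries of a side differed by more than sampling noise (chi-square per gene 2.48 to 3.93).

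Day 7 cells were placed by title, since their protocol label names both days. Sequences and gene models are from GENCODE M21 (GRCm38). Named genes were the 7 members, pathway genes called in the pools or past the fold in the cells of both days, the 3 genes nearest to each member by rank correlation, and marker genes. Gm15645, AW146154, genes past the fold at a single day and genes past adjusted p alone were named after their values were seen. The members and lists were chosen with earlier results of these data known. Adc and Adgre1 have no row under these symbols and were not analysed here.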

Additional observations from a re-analysis of the deposited data

How the results depend on the processing

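In pooled neurons, Odc1, Srm and Azin1 were called under all alternatives run for them, with log2 changes of 1.58 to 1.85, 1.24 to 1.54 and 1.03 to 1.25, and Sms and Sat1 under none. The number of members called was 3 under each, and 3 to 4 when 1 library was left out. The fourth was the row of Amd1 alone, which went from -8.70 without SNT library 1 to 8.28 without control library 1, because each of these holds all Amd1 counts of its side. The number of pathway genes called was 13, with 9 when libraries were thinned to the smallest, and 7 to 11 when 1 library was left out. Same-numbered libraries had correlations of deviations of 0.13, 0.01 and -0.02, so that the numbers were not taken as pairs; with the replicate block 3 members and 10 pathway genes were called.

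In the cells, the number of members past the fold at day 3 was 3, and by medians 1, which was Azin1. It was 2 with the outlier cells kept, where Odc1 was lost, and with 10 CPM added, without the highest cell or without cells rich in immune markers, where Arg1 was lost. At day 7 it was 1, and 0 by medians or with Gm15645 added to Odc1 (a choice made after seeing the data), while cells of females alone and the sum of counts over cells gave 2, the row of Amd1 alone being the second. Intervals of the shares above 10 CPM overlapped between the sides for all members at both days, and above 50 CPM 1 member, Odc1 at day 3, was apart. Without labels of animals, the spread between animals could not be measured in the cells. No cell was left out at day 7, so the setting with outliers gave no value there.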
